A study of Mus musculus with 12 samples.

Results

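The genes described here are 10 members of the NF-κB system. They are 5 transcription factor subunits (Nfkb1, Nfkb2, Rela, Relb, Rel) and 5 genes listed as inhibitors or IκB-like regulators (Nfkbia, Nfkbiz, Bcl3, Tnfaip3, Tnip3). They were picked by symbol from the 40847 rows of the count table, and all 10 were present and passed the filter on low counts. The RNA was from FLAMs, mouse macrophages grown out of fetal liver to resemble alveolar macrophages, and every culture contained GM-CSF at 30 ng/ml. The 4 groups of 3 libraries were untreated cells (medium with GM-CSF only), cells kept with recombinant human TGFβ1 at 20 ng/ml, cells given 25 ng/ml of Pam3CSK4 (Pam3 for short, a lipopeptide sensed by TLR2) for 18 h, and cells with both Pam3 and TGFβ1. The time spent in TGFβ1 before Pam3 is not given in the sources used here. The study asked whether TGFβ changes the answer of these cells to TLR2. The labels do not say whether the 3 libraries of a group came from separate cultures, so p-values measure the spread between these libraries, which may be technical.

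NF-κB factors are dimers of the 5 Rel family proteins, and in resting cells IκB proteins such as IκBα, the product of Nfkbia, hold them in the cytoplasm. Ligand binding by TLR2 activates the IκB kinases, IκBα is degraded, and the freed dimers enter the nucleus. Many of the genes they switch on encode brakes or further subunits of the same system, so these transcripts are widely used as readouts of NF-κB activity in macrophages.

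Transcription factors of this family bind a short DNA motif called the κB site, and RefSeq promoter windows (250 bases before to 50 bases after the start site, GRCm38.p6) were searched for it on both strands with the κB consensus, the only motif searched. Windows were matched by symbol for 7 of the 10 members, and none was matched for Nfkb1, Relb or Nfkbiz. The consensus was found in at least 1 window of 6 of these 7 genes (Nfkb2, Rel, Nfkbia, Tnfaip3, Bcl3 and Tnip3), against 11.8% of the 11210 tested genes with a window and 8.46% of all 32851 windows. Genes with several start sites have several windows and so more chances of a match. A match is a description of the letters, not a measured binding site. The 250 bases before the start site are printed for the IκBα gene, for Tnip3, whose response to TGFβ differed most, and for Rela, which had no match in its window. They are also printed for the brake Tnfaip3 and the subunit Nfkb2, each at its most upstream listed start. The other Tnfaip3 window (chr10:19011964-19012213) had no match. Capitals mark bases covered by a κB consensus match on either strand.
Nfkbia (chr12:55492648-55492897, minus strand): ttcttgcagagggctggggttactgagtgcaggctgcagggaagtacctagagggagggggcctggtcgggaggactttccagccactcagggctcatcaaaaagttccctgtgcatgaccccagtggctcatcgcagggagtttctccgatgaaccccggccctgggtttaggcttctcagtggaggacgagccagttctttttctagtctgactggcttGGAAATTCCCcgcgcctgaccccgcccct
Tnfaip3 (chr10:19015411-19015660, minus strand): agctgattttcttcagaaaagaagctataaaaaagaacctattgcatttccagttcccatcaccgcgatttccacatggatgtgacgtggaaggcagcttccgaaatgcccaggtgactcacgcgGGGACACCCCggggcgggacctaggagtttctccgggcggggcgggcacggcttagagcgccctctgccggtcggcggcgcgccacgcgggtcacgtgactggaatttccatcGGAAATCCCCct
Tnip3 (chr6:65590148-65590397, plus strand): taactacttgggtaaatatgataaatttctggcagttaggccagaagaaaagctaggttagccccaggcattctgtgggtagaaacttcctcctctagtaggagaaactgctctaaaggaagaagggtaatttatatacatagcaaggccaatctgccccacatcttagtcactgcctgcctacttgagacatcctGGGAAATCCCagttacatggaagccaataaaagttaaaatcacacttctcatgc
Nfkb2 (chr19:46304487-46304736, plus strand): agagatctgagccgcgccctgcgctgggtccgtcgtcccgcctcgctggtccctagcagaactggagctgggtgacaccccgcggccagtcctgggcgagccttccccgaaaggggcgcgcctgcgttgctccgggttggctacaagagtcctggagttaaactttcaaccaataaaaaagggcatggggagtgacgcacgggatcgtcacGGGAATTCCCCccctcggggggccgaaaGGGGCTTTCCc
Rela (chr19:5637291-5637540, plus strand): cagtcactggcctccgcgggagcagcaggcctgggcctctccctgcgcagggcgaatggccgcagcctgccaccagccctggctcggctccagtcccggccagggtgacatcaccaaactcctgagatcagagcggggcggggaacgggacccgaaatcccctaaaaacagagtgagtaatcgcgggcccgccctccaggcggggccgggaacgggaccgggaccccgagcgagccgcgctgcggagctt

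In the printed bases, the match nearest to the start site began 11 bases before it in Nfkb2 and 12 bases before it in Tnfaip3. It began 29 bases before the start site in Nfkbia and 54 bases before it in Tnip3. Past the start site, the only match of Bcl3 began at base 3, and a match in another Nfkb2 window began at base 11. The long capital run of Nfkb2 holds 2 overlapping matches. In the other lists described below, the consensus was found in a window of 11 of 30 NF-κB target genes, 5 of 11 other inhibitors and 2 of 17 upstream kinases, adaptors and ligases.

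Libraries held 34036650 to 44374115 counts, and replicates of each group differed by more than sampling noise. Levels are given as CPM, the count scaled to library size, with library sizes adjusted by the TMM method. A member had between 22 and 16638 counts in a library, and only Tnip3 fell below 92. The macrophage genes Csf1r, Cd68 and Lyz2 were high in every group (group means of 820 to 1241 CPM for Csf1r), while Lyz2 stood at 29820 ± 2123 CPM in untreated cells and 15250 ± 460.1 with TGFβ (SD, n = 3). The macrophage gene Itgam stood at 1088 ± 49.6 and 38.8 ± 1.9 CPM in these 2 groups (SD, n = 3). Of the 9 listed alveolar macrophage genes, 6 had a higher mean with TGFβ than without (Siglecf, Pparg, Car4, Chil3, Krt79 and Ear1; Siglecf at 32.2 ± 2.1 and 300.4 ± 9.99 CPM) and 3 a lower one (Marco at 2147 ± 266.1 and 123.3 ± 6.27 CPM, Fabp4 at 31.1 ± 1.12 and 0.132 ± 0.0507, Fabp5 at 277.5 ± 24.1 and 132.1 ± 4.64; SD, n = 3). The 7 listed neutrophil genes summed to 13.5 to 15.7 CPM in the untreated group, 3.75 to 5.51 under TGFβ, 16.3 to 17.1 after Pam3 and 5.31 to 6.99 after both. This sum is mostly S100a8, and the granule gene Mpo had no count in any library. The 5 dendritic cell genes summed to 4.48 to 5.62 CPM in untreated cells and 1.24 to 1.94 with TGFβ, with Flt3 at 0 in all groups but Pam3+TGFβ (mean 0.00753 CPM). The lymphocyte genes Cd3e and Ncr1 had no count in any library, and Cd79a stood at 0.0408 ± 0.0497 CPM in untreated cells and 0.206 ± 0.108 with TGFβ (SD, n = 3). The 5 hepatocyte genes, mostly Afp, summed to 5.80 to 5.87 CPM in the untreated group, 5.83 to 6.25 under TGFβ, 6.40 to 7.70 after Pam3 and 8.41 to 10.2 after both. Ttr had no count in any library and Alb a mean of at most 0.0437 CPM in a group, and the part of such cells in the members' results was not tested. In bulk RNA, fewer cells of a type and less RNA per cell cannot be told apart.

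Differences were tested gene by gene with edgeR's quasi-likelihood test over all 14749 tested genes, and a gene counts as called when its p, adjusted by Benjamini-Hochberg, is under 0.05. Every adjusted p below comes from that fit unless another is named. Log2 fold changes are followed by their standard error (SE). Of the 10 members, 8 rose with Pam3 without TGFβ (all tested genes: 18.3% called, 9.62% higher and 8.66% lower) and 10 rose with Pam3 in the presence of TGFβ (38.5% called, 20.4% higher and 18.1% lower). TGFβ without Pam3 lowered 7 members (51% called, 22.9% higher and 28.1% lower), whereas with Pam3 it raised 9 and lowered 1, Tnip3 (45.3% called, 21.5% higher and 23.8% lower). The Pam3 response was larger with TGFβ for all 10, tested as an interaction (15.9% called, 10.3% higher and 5.67% lower). The members were chosen with earlier results of these data known, and these comparisons share libraries, so the counts are not independent of each other. With upper-quartile scaling, 41.5% rather than 53.0% of all called genes were higher with Pam3 in the presence of TGFβ, and 53.4% rather than 64.5% of interaction calls were positive. The member counts under that scaling were the same except for the interaction, with 8. The count of 8 members for Pam3 without TGFβ fell to 5 without Pam3 replicate 3 and to 6 without untreated replicate 1.

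**Figure D1:**
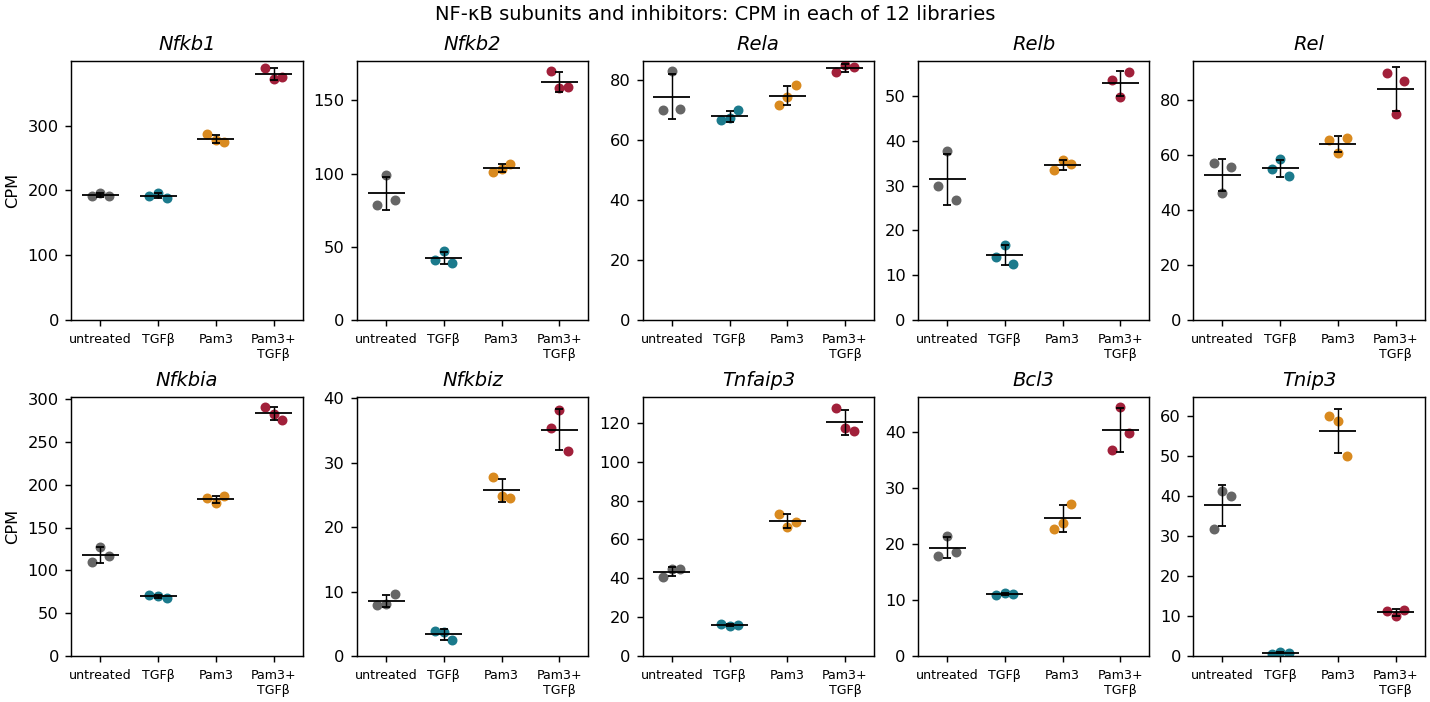
CPM (linear axis from 0) of each gene in the 12 libraries by group; points are libraries, the line is the mean of 3 and the bar is the SD. In 8 of the 10 panels the Pam3+TGFβ libraries are the highest; in the Rela panel 1 untreated library (82.96 CPM) lies among them, and in the Tnip3 panel they lie near 10.9 CPM, below the untreated and Pam3 libraries.

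Nfkb1 (chromosome 3, 135290264 to 135397742, minus strand of GRCm39) encodes p105, the precursor of the p50 subunit. It stood at 191, 197 and 192 CPM in the untreated libraries, 191, 196 and 188 with TGFβ, 287, 278 and 276 with Pam3, and 390, 372 and 376 with both. The untreated and TGFβ libraries overlapped, and the Pam3 and the Pam3+TGFβ libraries were each apart from all others. Pam3 raised Nfkb1 by 0.54 on the log2 scale without TGFβ (SE 0.0385, adjusted p 1.16e-10) and by 0.98 with it (SE 0.0386, adjusted p 9.35e-17). The TGFβ effect was -0.01 without Pam3 (SE 0.0385, adjusted p 0.823) and 0.44 with Pam3 (SE 0.0383, adjusted p 4.98e-10). For this gene nearly all of the interaction of 0.45 (SE 0.0542, adjusted p 8e-07) therefore lay in the Pam3-treated libraries.

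Rel, which encodes c-Rel (chromosome 11, 23686847 to 23721264, minus strand), had a similar order at lower levels. Its libraries spanned 46.1 to 56.8 CPM in the untreated group, 52.2 to 58.4 under TGFβ, 60.7 to 66.0 after Pam3 and 74.8 to 89.8 after both. Only the untreated and TGFβ libraries overlapped among neighbouring groups. The TGFβ effect was 0.06 without Pam3 (SE 0.077, adjusted p 0.52) and 0.39 with Pam3 (SE 0.0763, adjusted p 0.00017). The Pam3 response was 0.28 without TGFβ (adjusted p 0.0126) and 0.60 with it (adjusted p 7.08e-07). The interaction of 0.33 (SE 0.108, adjusted p 0.0413) had the highest adjusted p of the 10. Leaving out any 1 library cost it its call in 9 of 12 cases (0.26 to 0.35 there), the exceptions being fits without untreated replicate 2, TGFβ replicate 2 or Pam3+TGFβ replicate 2. The response without TGFβ lost its call without untreated replicate 2 (0.19), Pam3 replicate 1 (0.26) or Pam3 replicate 3 (0.25).

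Rela (chromosome 19, 5687493 to 5698161, plus strand) encodes p65, the subunit that carries the main activation domain of the classical dimer. It had the smallest range of group means of the 10 members. It stood at 69.9, 83.0 and 70.2 CPM in the untreated libraries, 66.4, 67.1 and 69.9 with TGFβ, 71.7, 74.2 and 78.1 with Pam3, and 82.6, 85.0 and 84.4 with both. Untreated replicate 2 lay within the Pam3+TGFβ range and the other untreated libraries below the Pam3 range. The Pam3 response was 0.01 without TGFβ (SE 0.0622, adjusted p 0.971) and 0.31 with TGFβ (SE 0.0621, adjusted p 0.000255). The TGFβ effect was -0.13 without Pam3 (adjusted p 0.0785), which passed the threshold without untreated replicate 1 (-0.16, adjusted p 0.0479) or replicate 3 (-0.17, adjusted p 0.0324) in a range of 0.0324 to 0.52 over the 12 leave-one-out fits. With Pam3 it was 0.17 (SE 0.0621, adjusted p 0.0278), and this call was lost without Pam3 replicate 1 (0.14) or 2 (0.17), or Pam3+TGFβ replicate 2 (0.16) or 3 (0.16). The interaction of 0.30 (SE 0.0879, adjusted p 0.0178) was lost without TGFβ replicate 1 (0.27) or Pam3 replicate 1 (0.27).

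Nfkb2 and Relb form the other pair of subunits. Nfkb2 (chromosome 19, 46292759 to 46303812, plus strand) encodes p100, the precursor of p52 in the alternative NF-κB pathway, and Relb (chromosome 7, 19339017 to 19363425, minus strand) encodes the usual partner of p52. Nfkb2 stood at 78.6, 99.2 and 81.7 CPM in the untreated libraries, 41.0, 46.9 and 38.6 with TGFβ, 101, 103 and 107 with Pam3, and 170, 158 and 159 with both. No neighbouring groups overlapped, and untreated replicate 2 lay close to the Pam3 libraries. Nfkb2 had a TGFβ effect of -1.03 without Pam3 (SE 0.0782, adjusted p 4e-10) and of 0.65 with Pam3 (SE 0.0759, adjusted p 3.88e-07). The Pam3 response was 0.26 without TGFβ (SE 0.0762, adjusted p 0.0206) and 1.94 with it (SE 0.0791, adjusted p 2.23e-14), an interaction of 1.68 (SE 0.109, adjusted p 3.26e-10). The smaller response lost its call without untreated replicate 1 (0.19) or 3 (0.22), or Pam3 replicate 2 (0.26) or 3 (0.24).

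Relb spanned 26.8 to 37.8 CPM in the untreated group, 12.5 to 16.8 under TGFβ, 33.5 to 35.7 after Pam3 and 49.9 to 55.3 after both. The untreated range enclosed the Pam3 range because of untreated replicate 2, and the other groups stood apart. Relb fell with TGFβ by 1.12 on the log2 scale without Pam3 (SE 0.113, adjusted p 8.95e-08) and rose with it by 0.61 in Pam3-treated cells (SE 0.107, adjusted p 0.000103). Its Pam3 response without TGFβ was 0.14 (adjusted p 0.453), which became 0.29 and was called without untreated replicate 2. With TGFβ the response was 1.87 (SE 0.113, adjusted p 7.97e-11), and the interaction was 1.73 (SE 0.156, adjusted p 1.23e-07). Nfkb2 and Relb were each other's closest match among all tested genes, with centred log2 CPM that differed by 0.0907 (root mean square over 12 libraries). The adhesion molecule gene Icam1 was the next closest to both, at 0.102 from Nfkb2 and 0.16 from Relb. Of the other members, Rela was closest to Ssr2 (0.0427), Rel to Larp4b (0.0691), Nfkbia to Slfn2 (0.0983), Bcl3 to Icam1 (0.119) and Tnfaip3 to Ccrl2 (0.137). These 12 libraries share the 4 treatments, so the values describe likeness of pattern only.

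The IκB family genes were Nfkbia, Nfkbiz and Bcl3. Nfkbia (chromosome 12, 55535332 to 55539432, minus strand) encodes IκBα. Its level was 109, 127 and 117 CPM in the untreated libraries, 70.7, 69.8 and 68.0 with TGFβ, 184, 179 and 186 with Pam3, and 291, 283 and 276 with both. The 4 groups did not overlap. Nfkbia had a TGFβ effect of -0.76 without Pam3 (SE 0.0507, adjusted p 2.02e-12) and of 0.63 with Pam3 (SE 0.0495, adjusted p 6.35e-11). Pam3 raised it 1.55-fold without TGFβ and 4.08-fold with it, an interaction of 1.39 (SE 0.0708, adjusted p 3.12e-13). Per kilobase of its canonical transcript, Nfkbia was the highest of the 10 members in every group, from 44.1 CPM per kb with TGFβ to 180 with both, and it was also highest when lengths of all merged exons were used. The lncRNA Gm36634 overlaps Nfkbia on the opposite strand, and Psd and 4833438C02Rik overlap Nfkb2. The libraries were stranded, but the strand setting of the counting is not given in the sources used here, so shared reads cannot be told apart.

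Nfkbiz (chromosome 16, 55631738 to 55659262, minus strand) encodes IκBζ, a nuclear IκB protein needed for induction of secondary response genes such as Il6. It stood at 7.92, 8.13 and 9.61 CPM in the untreated libraries, 3.93, 3.70 and 2.41 with TGFβ, 27.8, 24.9 and 24.5 with Pam3, and 35.5, 38.2 and 31.8 with both. It had the largest Pam3 response of the members without TGFβ, 1.59 (SE 0.118, adjusted p 6.12e-10), and one of 3.39 with TGFβ (SE 0.131, adjusted p 6.23e-16). TGFβ changed it by -1.35 without Pam3 (SE 0.137, adjusted p 1.45e-08) and 0.45 with Pam3 (SE 0.109, adjusted p 0.00156), and its interaction was 1.80 (SE 0.175, adjusted p 5.3e-08). The groups did not overlap. Its closest patterns over the 12 libraries were those of Socs1, an inhibitor of cytokine signalling (root mean square difference 0.205), and Tnf (0.236).

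Bcl3 (chromosome 7, 19541553 to 19557570, minus strand), a nuclear IκB protein that binds p50 and p52 dimers, spanned 17.8 to 21.4 CPM in the untreated group, 10.8 to 11.2 under TGFβ, 22.7 to 27.2 after Pam3 and 36.7 to 44.5 after both. It followed the order of Nfkbia and Nfkb2, with no overlap between groups. TGFβ changed it by -0.81 without Pam3 (SE 0.094, adjusted p 6.62e-08) and 0.72 with Pam3 (SE 0.0886, adjusted p 2.04e-07), and the interaction was 1.53 (SE 0.129, adjusted p 1.94e-09). Its Pam3 response without TGFβ was 0.35 (adjusted p 0.00761), which lost its call without untreated replicate 1 (0.29) or Pam3 replicate 3 (0.27), and with TGFβ it was 1.87 (adjusted p 1.01e-14). Without Pam3 replicate 3, the number of members called higher in the Pam3 response without TGFβ fell from 8 to 5, since Nfkb2 and Rel also lost their calls.

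Tnfaip3 and Tnip3 are the members linked to the protein A20. Tnfaip3 (chromosome 10, 18874201 to 18891405, minus strand) encodes A20, which edits ubiquitin chains on signalling proteins upstream of the IκB kinases. It stood at 40.6, 45.0 and 45.0 CPM in the untreated libraries, 16.3, 15.6 and 15.8 with TGFβ, 73.2, 66.4 and 69.2 with Pam3, and 128, 117 and 116 with both. The groups were fully separate, and the TGFβ libraries were the closest to each other. Tnfaip3 had a TGFβ effect of -1.45 without Pam3 (SE 0.0652, adjusted p 7.74e-16) and of 0.79 with Pam3 (SE 0.0604, adjusted p 3.95e-11), the latter the largest rise of the members in that comparison. Pam3 raised it 1.60-fold without TGFβ and 7.56-fold with TGFβ, an interaction of 2.24 (SE 0.0889, adjusted p 4.93e-15).

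Tnip3 (chromosome 6, 65502295 to 65611024, plus strand) encodes ABIN-3, of the family named A20-binding inhibitors of NF-κB. Whether ABIN-3 inhibits NF-κB in these mouse cells was not tested. The Tnip3 transcript stood at 31.8, 41.3 and 39.9 CPM in the untreated libraries and 0.609, 0.914 and 0.786 with TGFβ. With Pam3 it stood at 59.8, 58.7 and 49.9 CPM, and with both at 11.3, 9.91 and 11.5. Its order was the only one among the 10 in which both TGFβ groups were the lowest. TGFβ lowered it 48.4-fold without Pam3 (log2 -5.60, SE 0.145, adjusted p 2.97e-20), to 22 to 37 counts per library, and 5.16-fold with Pam3 (log2 -2.37, SE 0.104, adjusted p 1.43e-15). Pam3 raised it 1.49-fold without TGFβ (log2 0.58, SE 0.0961, adjusted p 8.27e-05) and 14.0-fold with TGFβ (log2 3.81, SE 0.153, adjusted p 3.59e-16). The interaction of 3.23 (SE 0.186, adjusted p 4.01e-12) was the largest of the members, yet the level with both remained under that of untreated cells in every library. Its TGFβ effects ran from -5.74 to -5.45 without Pam3 and from -2.44 to -2.31 with Pam3 when a library was left out. The summed neutrophil and dendritic cell markers were also lower with TGFβ, mostly through S100a8 (13.8 ± 1.43 CPM untreated, 3.07 ± 0.548 with TGFβ) and Zbtb46 (4.64 ± 0.447 and 1.42 ± 0.45; SD, n = 3). The mast cell sum was lower too, at 0.263 to 1.11 CPM untreated and at most 0.0741 with TGFβ, and was Cpa3 alone in both groups. The fibroblast and endothelial sum stood at 2.05 to 2.71 CPM untreated and 0.938 to 1.44 with TGFβ. Its endothelial genes were lower with TGFβ, Cdh5 at 0.888 ± 0.145 and 0.0514 ± 0.0495 and Kdr at 0.865 ± 0.2265 and 0.082 ± 0.1213 CPM. The fibroblast genes Pdgfra (0.594 ± 0.375 and 1.016 ± 0.1746) and Col1a1 (0 and 0.07085 ± 0.0797) had a higher mean with TGFβ (SD, n = 3). Of the other neutrophil genes, Elane, Ly6g and Mpo were at or near 0 in both groups, and 3 had a higher mean with TGFβ, with S100a9 at 0.254 ± 0.236 and 0.993 ± 0.367, Ngp at 0.346 ± 0.108 and 0.623 ± 0.377 and Camp at 0.00802 ± 0.0139 and 0.174 ± 0.0374 CPM (SD, n = 3). The part of these cells in the Tnip3 result was not tested. The genes with the closest pattern to Tnip3 were Wfdc18 (root mean square difference 0.322) and Upp1 (0.338), while the closest member, Nfkbiz, was at 1.8.

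**Figure D2:**
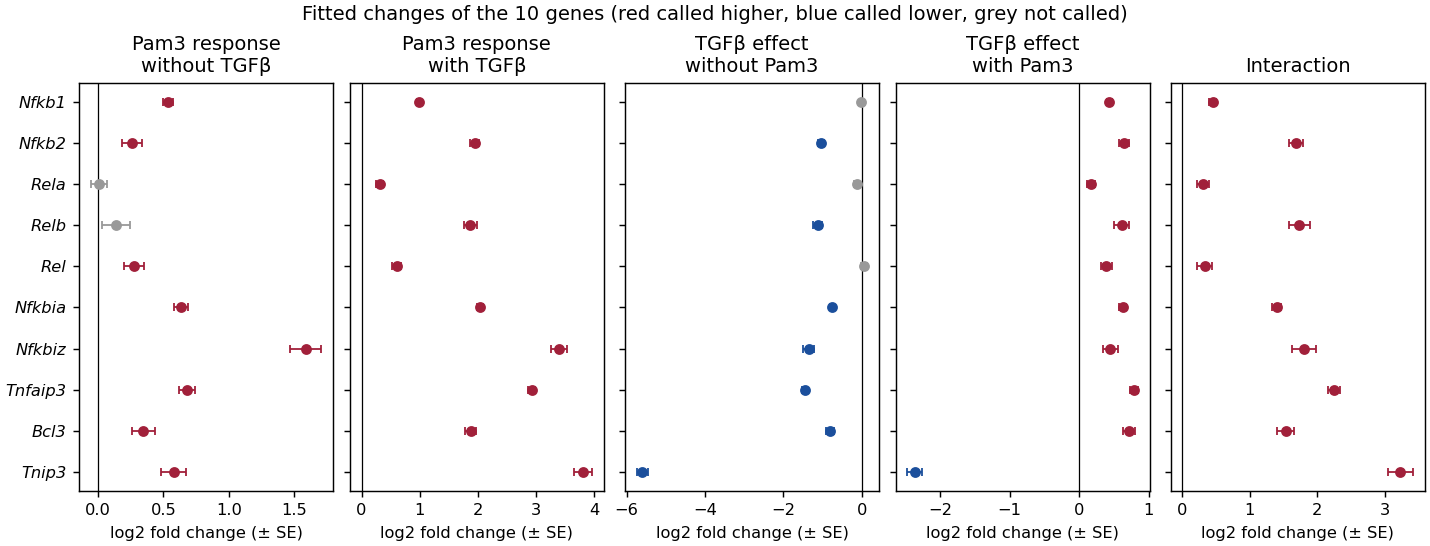
Log2 fold change (x axis, ± SE) of each gene in the 5 fitted comparisons, with red for genes called higher, blue for called lower and grey for not called; axes differ between panels. Tnip3 is the only blue point in the TGFβ effect with Pam3, at -2.37, while the others there lie between 0.17 and 0.79.

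Several courses can be told apart by where the groups differed. Nfkb1 and Rel did not have a called TGFβ effect at rest and were higher with TGFβ after Pam3. Nfkb2, Relb, Nfkbia, Nfkbiz, Bcl3 and Tnfaip3 were called lower with TGFβ at rest and higher with it after Pam3, so their TGFβ effect changed sign. Tnip3 was lower with TGFβ in both conditions, and Rela had small TGFβ effects whose calls depended on single libraries. The median log2 fold change of the 10 was 0.441 for Pam3 without TGFβ (0 over all tested genes), 1.909 for Pam3 with TGFβ (-0.019), -0.922 for TGFβ without Pam3 (-0.008), 0.531 for TGFβ with Pam3 (-0.002) and 1.607 for the interaction (0.005). CPM of the 3 and 3 libraries did not overlap for 8 members in the first of these comparisons (31.4% of all tested genes), 10 in the second (50.4%), 8 in the third (56.4%) and 10 in the fourth (55.1%).

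Ratios within a library compared the mRNA of pairs of members, in CPM per kb of canonical transcript. Protein was not measured in these libraries. Nfkbia relative to Rela was 2.74 ± 0.126 in the untreated group, 1.77 ± 0.0804 under TGFβ, 4.23 ± 0.176 after Pam3 and 5.81 ± 0.23 after both (SD, n = 3). Tnfaip3 relative to Rela was 0.231 ± 0.0197, 0.0923 ± 0.00403, 0.367 ± 0.0299 and 0.564 ± 0.0387 in the same order (SD, n = 3). In both ratios the 4 groups did not overlap, with TGFβ alone the lowest and both treatments the highest. Tnip3 relative to Tnfaip3 was 1.54 ± 0.126 in untreated cells and 1.44 ± 0.146 with Pam3, whose libraries overlapped, but 0.0868 ± 0.0191 with TGFβ and 0.162 ± 0.0134 with both (SD, n = 3). Nfkb1 relative to Rela was 1.51 ± 0.122 in untreated cells and 1.63 ± 0.0707 with TGFβ, also overlapping, then 2.17 ± 0.14 after Pam3 and 2.61 ± 0.104 after both (SD, n = 3). Relb relative to Nfkb2 stayed between 0.626 and 0.758 in all 12 libraries, with overlap between all groups. The size of such a ratio depends on the lengths used: with merged exons, Rela was above Nfkb1 in untreated cells (22.7 against 15.0 CPM per kb). The fold between groups in a ratio does not depend on length. With 3 libraries against 3, an exact two-sided permutation test cannot go below p = 0.1, so no p is given.

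**Figure D3:**
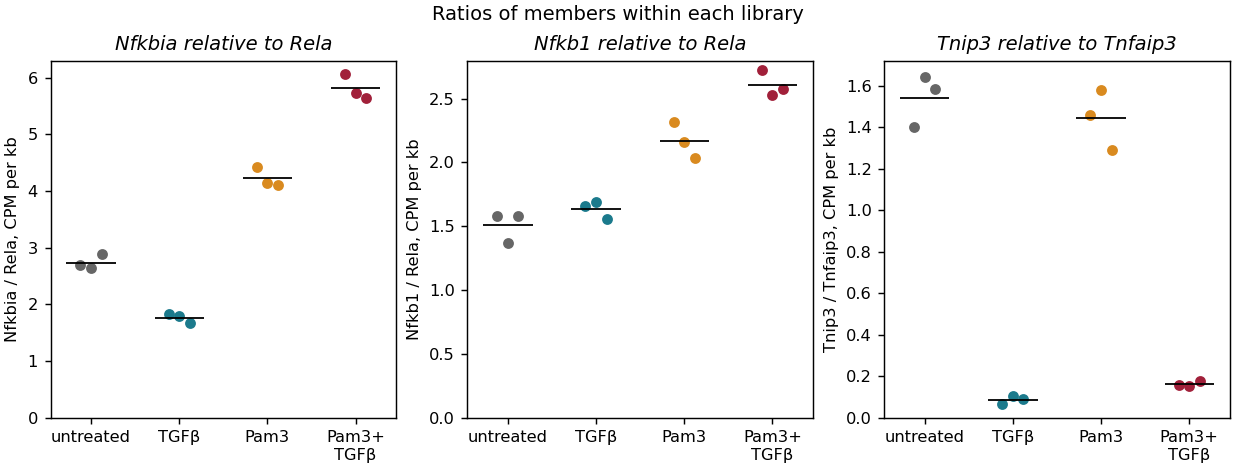
Ratio of 2 members in each library (y axis from 0, CPM per kb over CPM per kb), with points for the 3 libraries of a group and a line at their mean. Nfkbia relative to Rela rises from 1.77 with TGFβ to 5.81 with both treatments, whereas Tnip3 relative to Tnfaip3 is at 0.0868 and 0.162 in the groups with TGFβ and above 1 in those without.

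Other genes of the pathway were listed by role. Of 21 kinases, adaptors and ubiquitin ligases upstream of NF-κB, all tested, 5 rose and 2 fell with Pam3 in the absence of TGFβ, and 11 rose and 2 fell with Pam3 in its presence. TGFβ at rest raised 2 and lowered 6, with a median of -0.004, and with Pam3 it raised 3 and lowered 2. The interaction was positive for 5 and negative for 1, with a median of 0.09. The shares called over all tested genes, against which these counts and those of the next lists are to be read, were 18.3% and 38.5% for Pam3 in the absence and presence of TGFβ, 51% and 45.3% for TGFβ at rest and with Pam3, and 15.9% for the interaction. Rnf31, the catalytic subunit of the linear ubiquitin ligase complex, stood at 29.7 ± 0.78, 32.6 ± 0.51, 38.0 ± 1.32 and 64.1 ± 2.27 CPM in untreated, TGFβ, Pam3 and Pam3+TGFβ cells (SD, n = 3). Its TGFβ effect with Pam3 was 0.75 (SE 0.0592, adjusted p 6.21e-11), the largest of this list. Traf6, the ubiquitin ligase that relays TLR signals to the IκB kinases, rose by 0.48 in that comparison (SE 0.06, adjusted p 2.21e-07), and Ripk1, a kinase of TNF receptor signalling, fell by 0.36 (SE 0.0456, adjusted p 2.67e-07). Birc3, which encodes the ubiquitin ligase cIAP2, was lowered by TGFβ at rest (-0.78, SE 0.0705, adjusted p 8.15e-10), and Map3k14, the kinase NIK of the alternative pathway, was raised there (0.48, SE 0.103, adjusted p 0.0004).

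Of 15 other inhibitors, all tested, 4 rose with Pam3 alone and 10 rose with Pam3 in the presence of TGFβ. TGFβ without Pam3 lowered 10, while with Pam3 it raised 4 and lowered 6. The interaction was called positive for 9, with a median of 0.291. Nfkbie, which encodes IκBε, was at 46.6 ± 7.0 CPM in untreated and 75.5 ± 1.19 CPM in Pam3+TGFβ cells (SD, n = 3), was lowered by TGFβ at rest (-2.08, SE 0.0835, adjusted p 1.14e-16), and had an interaction of 2.62 (SE 0.113, adjusted p 1.87e-14). Tnip1, which encodes ABIN-1, a relative of the Tnip3 product, took a different course from Tnip3. Its level was 137 ± 15.8 CPM in untreated, 98.6 ± 0.321 in TGFβ, 222 ± 8.14 in Pam3 and 392 ± 11.2 in Pam3+TGFβ cells (SD, n = 3), with a TGFβ effect of 0.82 with Pam3 (SE 0.0567, adjusted p 1.88e-11). Nfkbid, which encodes the nuclear protein IκBNS, was lower with TGFβ both without Pam3 (-1.07, SE 0.0801, adjusted p 2.2e-11) and with it (-0.74, SE 0.0787, adjusted p 1.61e-08), as Tnip3 was. N4bp1, also of this list, had the pattern closest to Nfkb1 among all tested genes, at a root mean square difference of 0.0464. N4bp1 stood at 468 ± 16.6 CPM with both treatments (SD, n = 3).

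Of 37 listed NF-κB target genes, 32 were tested, and Ccl5, Ccl20, Csf2, Nos2 and Vcam1 had too few counts. With Pam3, 26 rose in the absence and 31 in the presence of TGFβ. TGFβ at rest lowered 21 and raised 2, and with Pam3 it raised 17 and lowered 9, with a median of 0.414. The interaction was positive for 25 and negative for 2, with a median of 1.562. The chemokine gene Cxcl10 had the largest rise of this list with TGFβ in Pam3-treated cells (4.39, SE 0.249, adjusted p 6.06e-07), and Cd40, a costimulatory receptor, the next (2.80, SE 0.425, adjusted p 5.47e-06), at 4.28 ± 0.427 CPM against 0.608 ± 0.126 (SD, n = 3). The chemokine gene Ccl2 had the largest fall there (-3.40, SE 0.089, adjusted p 1.61e-20), a direction shared with Tnip3.

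**Figure D4:**
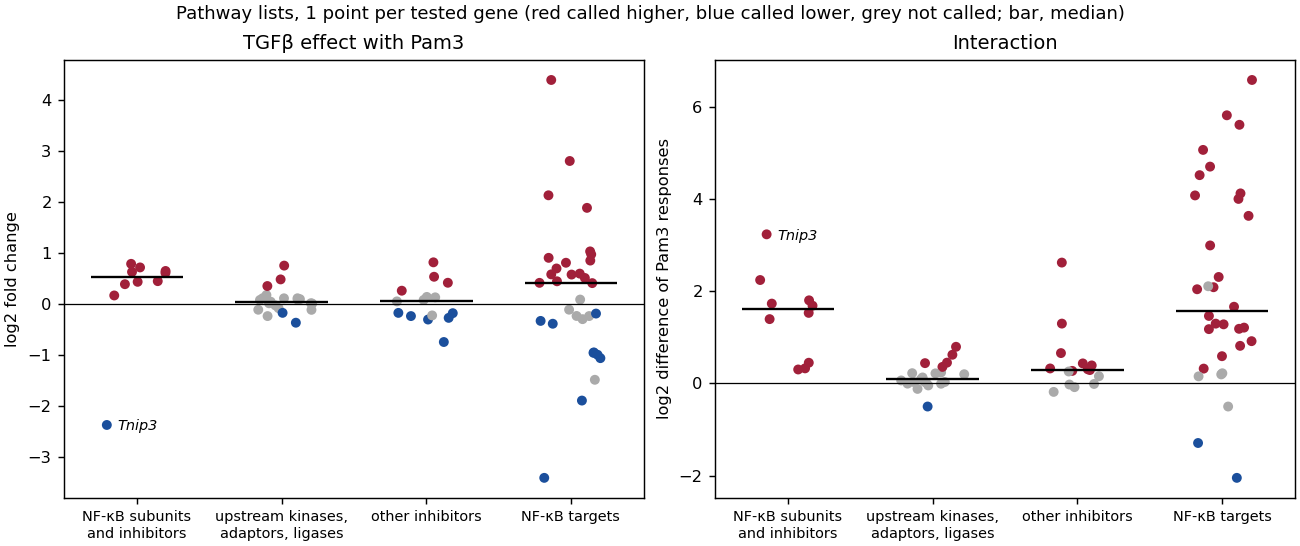
Log2 fold change of the TGFβ effect with Pam3 (left) and interaction (right) for each tested gene of the 4 lists, red called higher, blue called lower, grey not called, bars at the median. Medians with Pam3 are 0.531 for the 10 members and 0.414 for the targets, and Tnip3 lies apart from the other members on both sides.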

How the data were processed

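mRNA libraries made with a stranded kit were sequenced from 12 libraries in 4 groups of 3, grouped by their titles. Per the submitters' processing notes and design text, the authors aligned reads to GRCm39 with Bowtie2 2.4.1 and counted them with featureCounts of Subread 2.0.0; annotation and strand setting are not given in the sources used here. The deposited counts are raw whole numbers per gene symbol. The deposited normalized values, a signal, equal the count divided by 1 constant per library, and served only for an alternative. Bowtie2 does not split reads over introns, so junction reads can be lost.

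Genes passed filterByExpr of edgeR 4.0.16 (minimum count 10), which left 14749. Libraries were scaled by TMM, and the quasi-likelihood test (robust) was fitted to all 12 libraries in R 4.3.3 with 4 group means, with Benjamini-Hochberg adjustment over all tested genes. SE is the log2 fold change over the square root of F. Positions and transcript lengths come from GENCODE M39, matched by symbol for 32245 of 40847 rows. The code was tested on simulated data. Members and gene lists were chosen with earlier results of these data known. The rule for other named genes took, from each list, up to 5 called genes with the largest interaction and up to 3 with the largest TGFβ effect in each Pam3 condition, and the 2 genes of closest pattern (log2 CPM, prior count 2) for each member; part of these are described.

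Alternatives were DESeq2-type and upper-quartile scaling, DESeq2 1.42.0, no filter, a minimum of 10 counts in each library, limma-trend (limma 3.58.1) on log2 of the normalized values plus 1, a replicate block, only the groups compared, and leaving out each library. Intervals are not given for single counts, as reads carry no molecular identifiers.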

Additional observations from a re-analysis of the deposited data

Results flagged for a closer look

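Listed here are genes whose log2 response to Pam3 was not the same in the presence as in the absence of TGFβ by edgeR's test of that difference (presence minus absence). Among the subunits it was 0.45 for Nfkb1, 1.68 for Nfkb2, 0.3 for Rela, 1.73 for Relb and 0.33 for Rel. Among the inhibitors and IκB-like genes it was 1.39 for Nfkbia, 1.8 for Nfkbiz, 1.53 for Bcl3, 2.24 for Tnfaip3 and 3.23 for Tnip3.

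For upstream genes it was 0.79 for Birc3, 0.62 for Rnf31, 0.44 for Traf3, 0.45 for Traf5 and -0.5 for Map3k14. For the other inhibitors it was 2.62 for Nfkbie, 1.3 for Tnip1, 0.66 for Nfkbib, 0.43 for Pdlim2 and 0.39 for N4bp1. For the target genes it was 6.58 for Cxcl10, 5.81 for Cxcl3, 5.6 for Ccl2, 5.06 for Il6 and 4.7 for Cxcl2. These 5 values rest on few counts in the TGFβ libraries: 2 to 5 for Il6, 3 to 7 for Ccl2, 8 to 41 for Cxcl10, 22 to 31 for Cxcl3 and 37 to 53 for Cxcl2. Without TGFβ replicate 2 the value for Cxcl10 was 7.53, and without TGFβ replicate 1 that for Il6 was 5.64. When a library was left out, the call was lost in 9 of 12 fits for Rel, 8 for Traf5, 7 for Pdlim2, 4 for Map3k14 and 2 for Rela. Upper-quartile scaling also cost Rel, Rela, Traf5 and Pdlim2 theirs.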

How the results depend on the processing

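The count of members called in the Pam3 response without TGFβ, 8, ran from 5 (without Pam3 replicate 3) to 8 when a library was left out. Counts for the other comparisons ran from 7 to 8 (TGFβ without Pam3), 9 to 10 (TGFβ with Pam3) and 8 to 10 (interaction), and stayed at 10 for Pam3 with TGFβ. Under the 8 other settings (7 for the interaction) these counts equalled the main ones, except for the interaction with upper-quartile scaling (8) and limma-trend (9). Rela was at 0.26 with upper-quartile scaling (adjusted p 0.0503, range 0.00482 to 0.0503 over settings) and Rel at 0.28 with that scaling (adjusted p 0.0768) and 0.32 with limma-trend (adjusted p 0.065, range 0.00414 to 0.0768). Of 390 values of members under these settings, 387 kept their side of the threshold and, where called, their direction, and 3 lost a call. Of 600 values with a library left out, 24 lost and 3 gained a call, and none that was called reversed. Replicate numbers recur between groups, but deviations of same-numbered libraries correlated by -0.136 to 0.3 (over 0.1 in 5 of 12 pairs), and in 11 of 24 cases (each of the 12 libraries in 2 comparisons) a library correlated best with its own number. The numbers were not taken as pairs. With the replicate block the interaction was called positive for 1537 and negative for 856 genes, against 1516 and 836, and for 10 members, and no member lost or gained a call. The effect of depth was not tested, and the lowest counts of a member were the 22 to 37 of Tnip3 in TGFβ-treated cells.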
